A study of Mus musculus with 9 samples.

Results

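A set of 9 genes that mark lymphatic and venous endothelium was read from RNA-seq data of primary mouse lung endothelial cells (MLEC). They are the transcription factors Prox1, Nr2f2 and Foxc2, the surface proteins Pdpn and Itga9, and the secreted proteins Ccl21a, Reln, Mmrn1 and Nts. Members were found by gene symbol among the 37104 loci of the deposited tables. Of the 9 listed, 8 were measured and Foxc2 was not analysed here. The group was chosen because Prox1 and Ccl21a were lower in JNK-deficient cells, so the levels of its members in those cells are given as a description, with no test, and support nothing about the choice.

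Lymphatic endothelial cells arise in the embryo from venous endothelium that switches on Prox1, a homeodomain protein that is needed to gain and to keep lymphatic identity. Nr2f2 (COUP-TFII) is a nuclear receptor that maintains venous identity, partly by restraining Notch signaling, and it helps to induce Prox1. In the adult lung, lymphatic vessels drain fluid and carry leukocytes from the tissue, and they form a minor part of the endothelium beside the capillaries, arteries and veins.

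The cells came from adult C57BL/6J mice aged 10 to 12 weeks, in 3 groups of 3 libraries, and each library was made from a separate isolation that pooled the lungs of 4 mice. ECtrl was Cdh5-Cre+ with intact alleles (Jnk1+/+ and Jnk2+/+). EfCtrl was Cdh5-Cre- and homozygous for floxed alleles (Jnk1LoxP/LoxP and Jnk2LoxP/LoxP). E3KO combined Cdh5-Cre+ with the same floxed alleles. Every group was also Jnk3-/-, so the controls lacked Jnk3 as well. Cdh5 encodes VE-cadherin, and its promoter drives Cre in endothelial cells in general, lymphatic cells included. The cells were selected for ICAM2 by magnetic beads and cultured before RNA was taken, so the levels are those of cultured cells. The unit is FPKM, a fragment count scaled by the length of the transcript and by the mapped fragments of the library, so levels of different genes can be compared.

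The deleted genes were examined before the other values. Mapk8 (Jnk1) was at 14.0 to 17.9 FPKM in the 6 control libraries and at 20.7, 8.77 and 4.65 FPKM in E3KO replicates 1, 2 and 3. The library labelled E3KO replicate 1 was therefore above every control library for a gene whose floxed alleles should be recombined according to its label. In the paper's genotyping the recombined Mapk8 allele is a shortened form of the floxed one. FPKM over the whole locus can include reads from the part that remains, so the level does not measure the deletion itself. Mapk9 (Jnk2) was at 42.7 to 50.9 FPKM in the controls and at 27.6, 35.1 and 20.7 FPKM in E3KO, so all 3 E3KO libraries lay below all controls for this gene. In limma, the log2 difference of Mapk9 was -0.75 (adjusted p = 0.0359, and 0.0675 without the library labelled E3KO replicate 1, where the difference was -0.76). That call was kept in 5 of 17 alternatives (adjusted p from 0.0245 to 0.10), and leaving out any single library except E3KO replicate 2 ended it. Against either control group alone the Mapk9 call also ended. The log2 difference of Mapk8 was -0.67 (adjusted p = 0.285) with the library labelled E3KO replicate 1 and -1.18 (adjusted p = 0.0332) without it. Mapk10 (Jnk3) was at or below 0.270 FPKM in all 9 libraries. The library labelled E3KO replicate 1 also stood apart in its total: its FPKM values summed to 9841812, against 656089 to 908401 in the other 8, and 96.4% of that sum came from its 10 highest symbols. With symbols that average 5000 FPKM or more set aside, the sums of all 9 libraries lay between 388537 and 433172. For each member, and for each list and list gene whose log2 difference between E3KO and the controls is printed below, the value without the library labelled E3KO replicate 1 is given too. The number of fragments behind each gene is unknown.

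The cultures were endothelial and contained cells with lymphatic transcripts. Cdh5 was at 613 to 943 FPKM and Pecam1 at 643 to 798 FPKM across the 9 libraries. Lyve1, a hyaluronan receptor of lymphatic and some other endothelium, was at 1513 to 2050 FPKM, and Flt4, the VEGF-C receptor VEGFR-3, was at 127 to 188 FPKM. Genes of the venous side of the label were mixed. Of 12 venous genes listed, 6 reached the mean of 2 FPKM in a group that was required for testing. That mean was reached by 19 of 26 lymphatic genes outside the members. Slc38a5 was listed at 0 in all 9 libraries, and Vwf did not exceed 2.15 FPKM. In the controls, Dab2 was at 74.6 to 107 FPKM, Ephb4 at 35.7 to 53.8 FPKM and Selp at 15.9 to 33.7 FPKM. The 12 genes summed to 1026 to 1139 FPKM there. In bulk RNA, fewer cells of a type and less RNA per cell cannot be told apart.

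JNK phosphorylates Jun, a subunit of the AP-1 factor that binds TGANTCA, and Jun with ATF family partners can bind the CRE motif TGACGTCA. The promoters of 3 members are shown: Prox1, which of the transcription factors had the lowest level in E3KO relative to the controls, and Ccl21a and Nts, which had the lowest among the secreted proteins. They are RefSeq windows of build GRCm38.p6, from 250 bases before to 50 after the annotated start, printed 5′ to 3′ on the minus strand of each gene. Capitals mark a match to TGANTCA.
Prox1 (chr1:190170778-190171077): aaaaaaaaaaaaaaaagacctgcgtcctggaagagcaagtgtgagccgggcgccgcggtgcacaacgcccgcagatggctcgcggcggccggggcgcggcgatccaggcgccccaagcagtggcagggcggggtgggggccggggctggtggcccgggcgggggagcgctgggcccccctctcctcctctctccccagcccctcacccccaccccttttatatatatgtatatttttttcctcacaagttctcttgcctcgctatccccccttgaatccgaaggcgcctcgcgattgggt
Ccl21a (chr4:42773942-42774241): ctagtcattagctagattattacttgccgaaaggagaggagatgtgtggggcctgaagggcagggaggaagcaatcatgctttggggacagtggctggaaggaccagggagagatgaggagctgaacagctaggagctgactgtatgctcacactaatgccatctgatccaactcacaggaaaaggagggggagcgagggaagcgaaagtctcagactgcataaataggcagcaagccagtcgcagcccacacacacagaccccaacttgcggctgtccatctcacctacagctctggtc
Nts (chr10:102490369-102490668): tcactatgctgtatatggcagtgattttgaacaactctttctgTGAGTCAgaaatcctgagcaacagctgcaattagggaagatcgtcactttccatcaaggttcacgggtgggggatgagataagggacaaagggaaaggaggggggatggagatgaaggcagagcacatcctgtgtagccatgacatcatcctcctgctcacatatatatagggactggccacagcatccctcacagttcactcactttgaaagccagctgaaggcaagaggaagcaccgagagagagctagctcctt
Both strands were searched, and the motifs do not overlap each other in these windows. The Nts window holds TGAGTCA 207 bases before the annotated start. The windows of Prox1 (2 annotated starts), Nr2f2, Pdpn, Ccl21a, Reln and Mmrn1 hold neither set of letters. The Itga9 window holds TGACTCA 38 bases after its start, but that RefSeq start lies inside the Itga9 locus of the files rather than at its edge. The RefSeq starts of Mmrn1, Prox1 and Ccl21a also lie inside the loci of these genes. In all, 2 of the 9 windows of the 8 members have a match to either motif. Among 32851 promoters of the same length, 7.81% hold TGANTCA, 1.79% hold TGACGTCA and 9.54% hold either. A match of letters is no evidence of binding.

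Prox1 (chromosome 1, 190118038 to 190217276, mm10) was at 158, 120 and 131 FPKM in ECtrl replicates 1, 2 and 3 and at 134, 117 and 145 FPKM in EfCtrl. It was at 58.1, 79.2 and 64.7 FPKM in E3KO. All 3 E3KO libraries lay below all 6 control libraries, and the control groups overlapped. The E3KO mean was 67.3 FPKM ± 10.8 (SD, n = 3), which is 50.1% of the control mean of 134 FPKM ± 15.4 (SD, n = 6). The difference of mean log2(FPKM + 1) was -1.01 against ECtrl, -0.97 against EfCtrl and -0.99 against the mean of both, and it was -0.89 without the library labelled E3KO replicate 1. The deposited group values, which come from a joint estimate over the libraries, are 141 FPKM for ECtrl, 139 for EfCtrl and 78.9 for E3KO. The annotation places the antisense genes Prox1os and Gm28172 in the Prox1 locus. Use of strand in the counting is not given in the sources used here, so reads of these genes and of Prox1 could not be separated.

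Nr2f2 (chromosome 7, 70351946 to 70366735) was at 64.8, 59.9 and 57.5 FPKM in ECtrl and at 56.4, 59.1 and 56.8 FPKM in EfCtrl. It was at 29.5, 57.9 and 62.6 FPKM in E3KO. A single library was low, the one labelled E3KO replicate 1, and the other 2 E3KO libraries lay within the control range. The log2 difference from the mean of the controls was -0.31 with all libraries and 0.03 without that library. Nr2f2 thus had a direction that depended on the library labelled E3KO replicate 1, in which Mapk8 lay above all controls and Mapk9 below all controls.

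**Figure D1:**
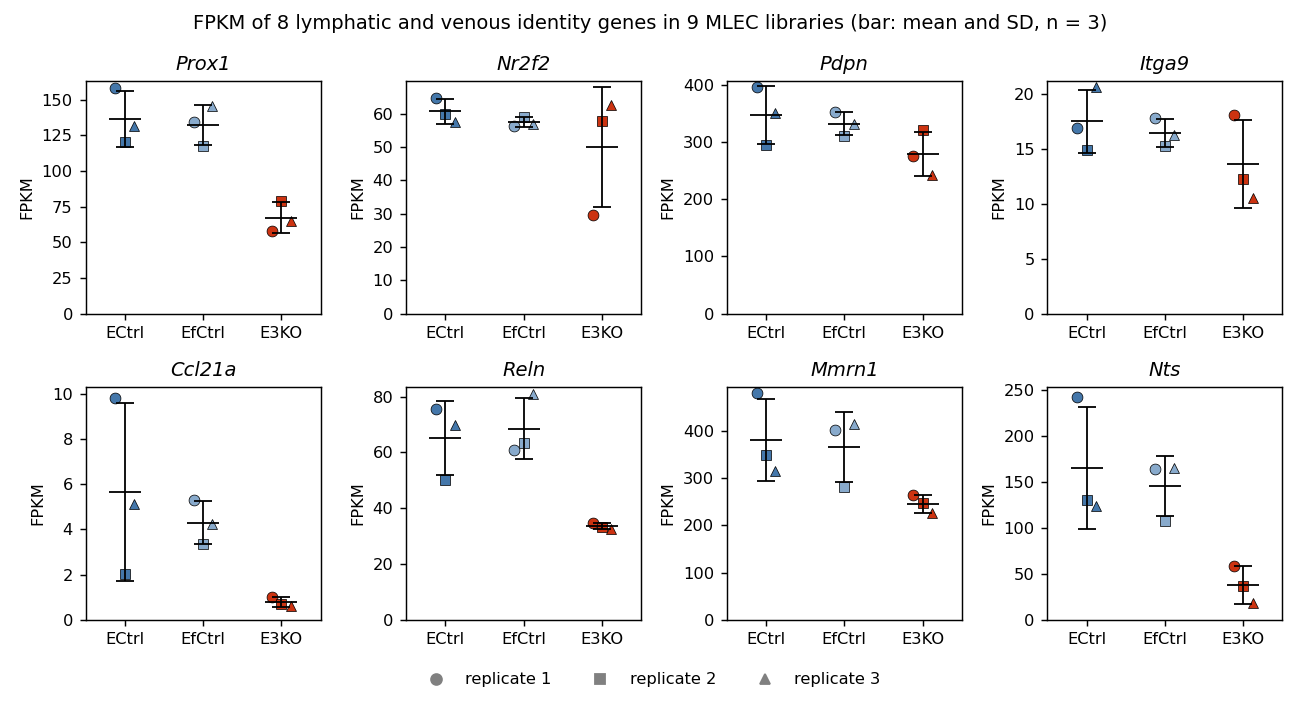
FPKM of the 8 measured genes on the y axis, which starts at 0, in the 9 MLEC libraries grouped as ECtrl, EfCtrl and E3KO on the x axis. Circles, squares and triangles are replicates 1, 2 and 3, and bars give the mean and SD (n = 3). The E3KO libraries lie below all control libraries for Prox1, Ccl21a, Reln, Mmrn1 and Nts, while for Nr2f2 only the circle, the library labelled E3KO replicate 1, is low.

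Pdpn (chromosome 4, 143267431 to 143299564) encodes podoplanin, a mucin-type protein on lymphatic endothelium that binds CLEC-2 on platelets. It was at 397, 295 and 351 FPKM in ECtrl, at 352, 311 and 332 FPKM in EfCtrl, and at 275, 320 and 242 FPKM in E3KO. The E3KO and control ranges overlapped through E3KO replicate 2, and the log2 difference from the mean of the controls was -0.29 (-0.28 without the library labelled E3KO replicate 1). Podoplanin is also made by alveolar type I and mesothelial cells. The 6 alveolar type I genes examined summed to 4.89 to 8.73 FPKM in the controls and 3.58 to 9.40 FPKM in E3KO, with Clic5 and Hopx the highest, Ager at or below 0.756 FPKM and Aqp5 at or below 0.266 FPKM. The 5 mesothelial genes summed to 0.241 to 6.31 FPKM in the controls and 0.0931 to 1.08 FPKM in E3KO, with Upk1b and Wt1 the highest and Msln at or below 0.394 FPKM. The part of these cells in the Pdpn level was not tested.

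Itga9 (chromosome 9, 118606690 to 118926269) encodes integrin alpha 9, which lymphatic valve cells need to assemble the fibronectin core of their leaflets. It was at 16.9, 14.9 and 20.6 FPKM in ECtrl, at 17.8, 15.3 and 16.2 FPKM in EfCtrl, and at 18.1, 12.2 and 10.5 FPKM in E3KO. Replicates 2 and 3 of E3KO lay below all controls and replicate 1 lay among them. The log2 difference was -0.32 with all libraries and -0.53 without the library labelled E3KO replicate 1. The locus also covers the processed pseudogene Gm10157, which is listed separately at up to 17.1 FPKM.

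Ccl21a encodes the chemokine CCL21, which lymphatic vessels display to draw in dendritic cells that carry the receptor CCR7. It was at 9.83, 2.03 and 5.15 FPKM in ECtrl, at 5.31, 3.37 and 4.24 FPKM in EfCtrl, and at 1.02, 0.705 and 0.591 FPKM in E3KO. All E3KO libraries lay below all controls, and the E3KO mean was 15.5% of the control mean. Because the values are low, the log2 difference depended on the constant added before taking logs: it was -1.65 with 1 and -2.42 with 0.1. With 1 it was -1.75 without the library labelled E3KO replicate 1. The gene lies at 42772860 to 42773993 on chromosome 4 in GENCODE, but the files place the symbol on a locus from 42735545 to 42856771 that overlaps 5 other annotated genes. The transcripts of the copies Ccl21b, Gm10591, Gm13304 and Gm21541 are 99.3% to 99.5% identical to that of Ccl21a over their length, so reads could not be assigned firmly to a copy. In the tables Ccl21b was at or below 0.0951 FPKM and the rows of Ccl21c and Ccl19 were listed at 0.

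Reln (chromosome 5, 21884454 to 22344702) encodes reelin, a large secreted protein that lymphatic endothelium releases onto the muscle cells of collecting vessels. It was at 75.5, 50.2 and 69.9 FPKM in ECtrl and at 61.0, 63.6 and 81.0 FPKM in EfCtrl. It was at 34.7, 33.4 and 32.7 FPKM in E3KO. The E3KO libraries lay close together and below all controls, with a mean of 33.6 FPKM ± 1.04 (SD, n = 3) against 66.9 FPKM ± 11.0 (SD, n = 6). The log2 difference was -0.96, and -0.98 without the library labelled E3KO replicate 1.

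Mmrn1 (chromosome 6, 60924976 to 60989378) encodes multimerin 1, a matrix protein of lymphatic capillaries that is also stored in platelets. It was at 479, 347 and 314 FPKM in ECtrl and at 401, 280 and 414 FPKM in EfCtrl. It was at 264, 247 and 225 FPKM in E3KO. The highest E3KO library lay just below the lowest control, EfCtrl replicate 2, and the E3KO mean was 65.8% of the control mean. The log2 difference was -0.58, and -0.64 without the library labelled E3KO replicate 1.

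Nts (chromosome 10, 102481760 to 102490418), whose promoter holds TGAGTCA above, encodes the precursor of neurotensin, a peptide best known from gut and brain. It was at 242, 130 and 124 FPKM in ECtrl and at 164, 108 and 165 FPKM in EfCtrl. It was at 58.7, 37.0 and 18.1 FPKM in E3KO. All E3KO libraries lay below all controls, and they were spread over a wider ratio than those of any control group. The E3KO mean of 37.9 FPKM ± 20.3 (SD, n = 3) was 24.4% of the control mean of 156 FPKM ± 48.0 (SD, n = 6). The log2 difference was -2.11 and became -2.49 without the library labelled E3KO replicate 1, the highest of the 3.

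In the controls, the order of levels from the highest mean was Mmrn1, Pdpn, Nts, Prox1, Reln, Nr2f2, Itga9 and Ccl21a. The ranges of Mmrn1 and Pdpn, of Nts and Prox1, and of Reln and Nr2f2 overlapped over the 6 control libraries, and the other neighbours in that order did not. In E3KO the order was Pdpn, Mmrn1, Prox1, Nr2f2, Nts, Reln, Itga9 and Ccl21a. The ranges of Pdpn and Mmrn1, of Prox1 and Nr2f2, of Nr2f2 and Nts, and of Nts and Reln overlapped over the 3 E3KO libraries, and the other neighbours did not. Nts thus stood above Prox1 in the mean of the controls and below it in E3KO. Without the library labelled E3KO replicate 1, the order of Nts (27.6 FPKM) and Reln (33.0 FPKM) was turned.

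All 8 measured genes passed the filter, which required a mean of 2 FPKM in any group. Ccl21a passed through the control groups only, with means of 5.67 FPKM in ECtrl, 4.31 in EfCtrl and 0.773 in E3KO. The log2 differences of the 8 genes between E3KO and the mean of the controls ran from -0.29 to -2.11, with a median of -0.77 (-0.76 without the library labelled E3KO replicate 1). The median over all 10605 genes tested was -0.08. For 5 of the 8, all E3KO libraries lay below all control libraries, which held for 11.5% of all genes, and since the members were chosen on this comparison the count is a description only.

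EfCtrl and ECtrl differ in Cre and in the floxed alleles but retain JNK1 and JNK2, and this comparison had no part in choosing the members. In limma, the log2 difference EfCtrl minus ECtrl ran from -0.16 for Ccl21a to 0.08 for Reln. For Prox1 it was -0.04 ± 0.16 (SE), with a 95% interval from -0.41 to 0.33. The intervals were widest for Nts (-1.12 to 0.84) and Ccl21a (-1.08 to 0.76), so differences of that size between the control groups were not detectable. None of the 8 genes passed the test in limma: their lowest unadjusted p was 0.655, and every adjusted p was 1. Across all genes limma called 0% (0 of 10605) in this comparison, and 195 genes (1.84%) had an unadjusted p under 0.05.

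**Figure D2:**
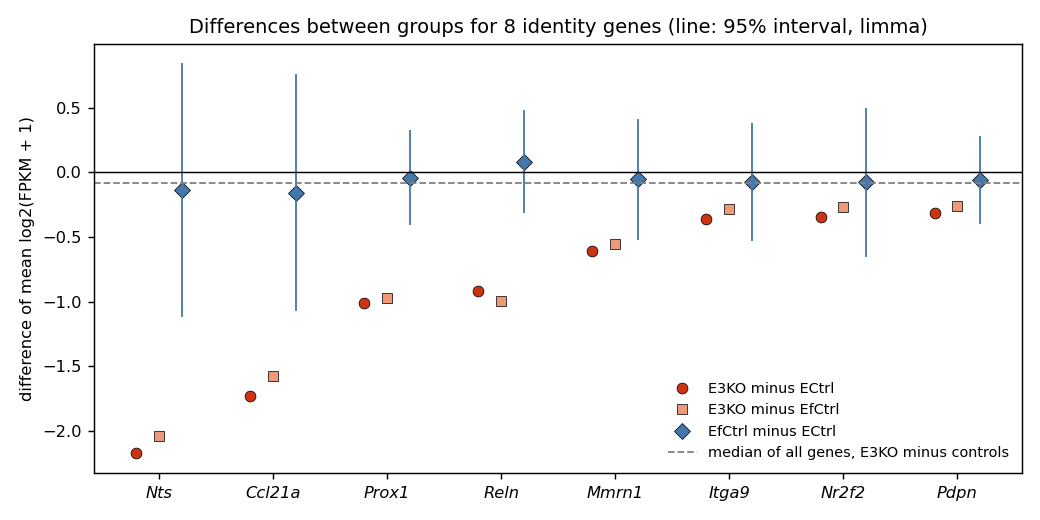
Difference of mean log2(FPKM + 1) between groups on the y axis for 8 genes on the x axis: E3KO minus ECtrl (circles), E3KO minus EfCtrl (squares) and EfCtrl minus ECtrl (diamonds, with the 95% interval from limma). The dashed line is the median of all genes for E3KO minus the controls, -0.08. The diamonds lie between -0.16 and 0.08, and the circles and squares of Nts, near -2.17 and -2.04, lie lowest.

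Members were also read as ratios to Lyve1 in the same library. Lyve1 was chosen for this after its values were seen, so the ratios describe the members' levels again and are no independent measure. Its level was 1605 FPKM ± 110 (SD, n = 3) in E3KO and 1689 FPKM ± 185 (SD, n = 6) in the controls. Its log2 difference was -0.07, with a 95% interval from -0.31 to 0.18 and an adjusted p of 0.717 in limma, and it was -0.03 without the library labelled E3KO replicate 1. Relative to Lyve1, the mean log2 ratio in E3KO minus that in the controls was -0.93 for Prox1, -0.91 for Reln, -0.52 for Mmrn1 and -2.07 for Nts. It was -0.22 for Pdpn and -0.06 for Flt4. Without the library labelled E3KO replicate 1 the values were -0.87 for Prox1, -0.97 for Reln, -0.61 for Mmrn1, -2.51 for Nts, -0.25 for Pdpn and 0.01 for Flt4. Lyve1 is also made by other cells, among them macrophages, so the ratio is not a count of lymphatic cells.

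**Figure D3:**
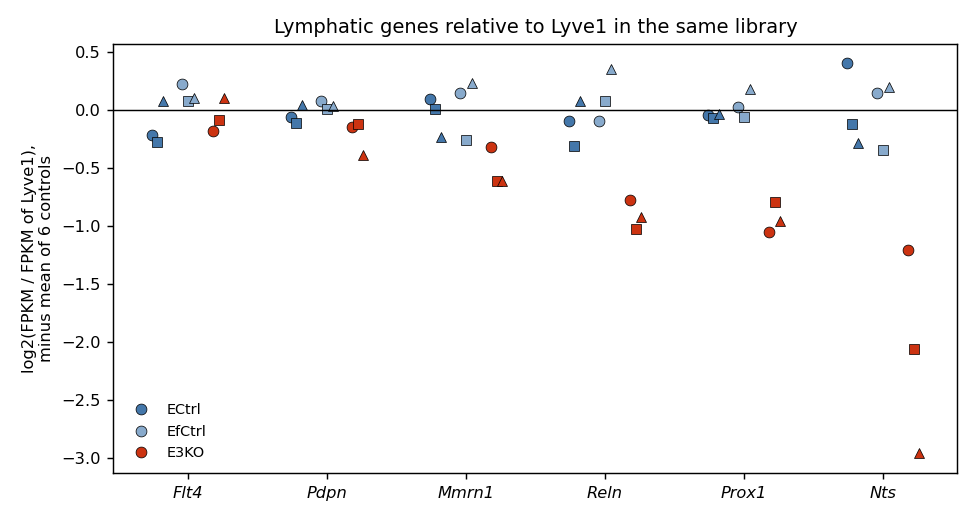
Ratio of each gene to Lyve1 in the same library, as log2 of the FPKM ratio minus the mean of the 6 controls, on the y axis, for 6 genes on the x axis. Colours are groups, and circles, squares and triangles are replicates 1, 2 and 3. The E3KO points of Flt4 lie among the controls. Those of Pdpn, Mmrn1, Reln, Prox1 and Nts lie below every control point, narrowly for Pdpn and Mmrn1.

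Other genes of lymphatic endothelium showed no common direction in E3KO. Of 26 listed genes, 19 were tested against the mean of the controls, and limma called 2 lower and 0 higher. Of all 10605 genes, limma called 4.8% (3.26% lower and 1.54% higher in E3KO). This list and those below were chosen with earlier results of these data known. Their counts beside the shares of all genes are therefore a description only. The median log2 difference of the 19 lymphatic genes was -0.12, against -0.08 over all genes. Of the 19, 12 lay below the control mean and 7 above, beside 6552 and 4053 of all 10605 genes. Without the library labelled E3KO replicate 1 the median of the 19 was -0.03 and 1 gene was called lower. For 5 of the 19 all E3KO libraries lay below all controls, and for 2 they lay above, which held for 11.5% and 5.18% of all genes.

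The growth factor axis that drives lymphatic growth gave no call. Flt4 was at 151 FPKM ± 18.5 (SD, n = 3) in E3KO and 164 FPKM ± 20.6 (SD, n = 6) in the controls (log2 difference -0.12, 95% interval -0.44 to 0.19, and -0.02 without the library labelled E3KO replicate 1). Its co-receptor Nrp2 was at 162 and 163 FPKM (log2 difference -0.03, 95% interval -0.44 to 0.38), and its difference turned to 0.18 without that library. The ligand gene Vegfc was low throughout, at 1.32 to 3.50 FPKM, and Figf (Vegfd) did not exceed 1.44 FPKM.

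Among 6 tested transcription factors, Nfatc1, a factor of lymphatic and cardiac valve development, was the only one called. It was at 80.5, 47.7 and 59.9 FPKM in ECtrl, at 62.0, 54.9 and 65.6 FPKM in EfCtrl, and at 30.6, 39.0 and 34.9 FPKM in E3KO. All E3KO libraries lay below all controls. Its log2 difference was -0.80 ± 0.17 (SE, limma adjusted p = 0.0373), and the call was kept in 6 of 17 alternatives, with adjusted p from 0.0259 to 0.115. Against either control group alone the call ended. Leaving out ECtrl replicate 3, or any single library of EfCtrl or E3KO, also ended it (without the library labelled E3KO replicate 1, log2 difference -0.71, limma adjusted p = 0.0834). Sox18, which switches on Prox1 in the embryo, had a log2 difference of -0.19 (95% interval -0.44 to 0.06), or -0.17 without that library. Gata2, needed for lymphatic valves, and Tbx1, which controls Flt4 in development, had differences of -0.52 and -0.70, with all E3KO libraries below all controls, but missed the threshold in limma (adjusted p = 0.0722 and 0.0853). The differences were -0.58 and -0.79 without the library labelled E3KO replicate 1.

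Thy1 was the only call among 10 tested surface, signalling and valve genes. It encodes a surface glycoprotein found on lymphatic endothelium and also on fibroblasts and T cells. It was at 330, 227 and 261 FPKM in ECtrl, at 375, 210 and 255 FPKM in EfCtrl, and at 142, 133 and 94.4 FPKM in E3KO. All E3KO libraries lay below all controls, with a log2 difference of -1.15 ± 0.22 (SE, limma adjusted p = 0.0289). The call was kept in 8 of 17 alternatives, with adjusted p from 0.0196 to 0.109, and held without the library labelled E3KO replicate 1 (log2 difference -1.26, adjusted p = 0.0458). It ended without replicates 1 or 3 of either control group and without E3KO replicates 2 or 3. With no filter, and against either control group alone, the Thy1 call also ended. The T cell marker Cd3e was listed at 0 in all libraries, and the summed level of 10 fibroblast and mural genes was 11.9 to 77.1 FPKM in the controls and 10.1 to 23.0 FPKM in E3KO. The part of fibroblasts in the Thy1 result was not tested. Angpt2, a Tie2 ligand that lymphatic development requires, also had all E3KO libraries (704 to 876 FPKM) below all controls (970 to 1340 FPKM), with a log2 difference of -0.49 (limma adjusted p = 0.0724), or -0.54 without the library labelled E3KO replicate 1.

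A pair of genes of that list pointed the other way. Clca1 (current symbol Clca3a1), a calcium-activated chloride channel regulator of lymphatic endothelium, and Ccbp2 (Ackr2), a chemokine scavenger of lymphatic vessels, had all E3KO libraries above all controls. Clca1 was at 17.8 to 19.8 FPKM in E3KO and 7.30 to 13.1 FPKM in the controls (log2 difference 0.73, limma adjusted p = 0.0557). Ccbp2 was at 22.7 to 25.4 FPKM in E3KO and 15.0 to 20.4 FPKM in the controls (log2 difference 0.48, limma adjusted p = 0.0689). Neither passed the threshold on the deposited values, and both passed when each library was centred on its median gene (adjusted p = 0.0472 and 0.0388). Their differences were 0.73 and 0.51 without the library labelled E3KO replicate 1.

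**Figure D4:**
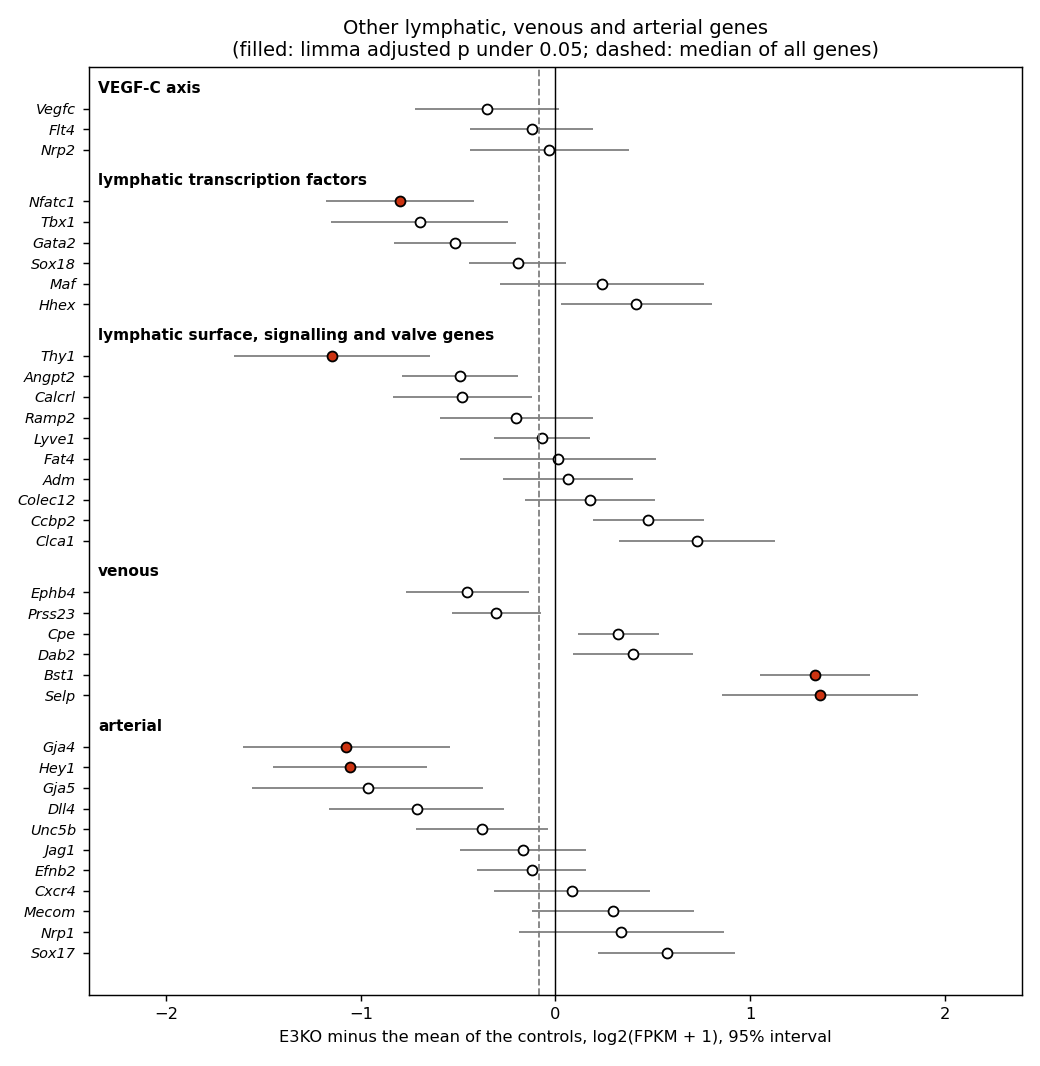
Log2 difference between E3KO and the mean of the controls on the x axis, with its 95% interval from limma, for genes of lists that hold none of the 9 members, arranged by list on the y axis. Filled points have an adjusted p under 0.05, and the dashed line is the median of all genes, -0.08. Selp and Bst1 lie near 1.3 on the higher side, Thy1, Gja4 and Hey1 lie near -1.1 on the lower side, and Flt4, Nrp2 and Lyve1 lie close to 0.

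Of 6 venous genes tested, limma called 2 higher and 0 lower, beside 1.54% and 3.26% of all genes. The venous list, too, was chosen with earlier results known, so these counts are a description. Selp, the P-selectin by which venules catch rolling leukocytes, was at 74.2, 64.6 and 82.4 FPKM in E3KO and at 15.9 to 33.7 FPKM in the controls. All E3KO libraries lay above all controls, with a log2 difference of 1.36 ± 0.22 (SE, limma adjusted p = 0.0182). Bst1 (CD157), a surface enzyme of venous and progenitor endothelium and of myeloid cells, was at 6.71, 5.35 and 7.58 FPKM in E3KO and at 1.78 to 2.37 FPKM in the controls. Its log2 difference was 1.33 ± 0.12 (SE, limma adjusted p = 0.00725), and its call was kept in all 17 alternatives. The 8 leukocyte genes examined summed to 154 to 279 FPKM in E3KO and 41.8 to 224 FPKM in the controls. The part of leukocytes in the Bst1 result was not tested. The call of Selp was kept in 13 of the 17 alternatives (limma adjusted p from 0.00813 to 0.0885). It ended without EfCtrl replicates 1 or 3, without E3KO replicate 3 and against EfCtrl alone. Ephb4, the venous receptor for ephrin-B2, was at 28.6 to 34.0 FPKM in E3KO, below all controls (35.7 to 53.8 FPKM), with a log2 difference of -0.45 (limma adjusted p = 0.101). For 4 of the 6 genes all E3KO libraries lay above all controls, and for 2 they lay below. That held for 5.18% and 11.5% of all genes. Among those above was Dab2, at 113 to 142 FPKM in E3KO and 74.6 to 107 FPKM in the controls (log2 difference 0.40, limma adjusted p = 0.129). The median log2 difference of the venous list was 0.36, against -0.08 over all genes. Without the library labelled E3KO replicate 1, Selp was at 1.35, Bst1 at 1.31, Dab2 at 0.49, Ephb4 at -0.38 and the median at 0.41, each as a log2 difference.

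Arterial genes were examined for comparison, and limma called 2 of 11 lower and 0 higher, beside 3.26% and 1.54% of all genes. Gja4 (connexin 37), which lymphatic valves also use, was at 1.13, 1.13 and 1.05 FPKM in E3KO and at 2.09 to 5.56 FPKM in the controls (log2 difference -1.07 ± 0.23, SE, limma adjusted p = 0.0408). Hey1, a Notch target, was at 2.05, 2.99 and 2.91 FPKM in E3KO and at 5.08 to 10.8 FPKM in the controls (log2 difference -1.06 ± 0.17, SE, limma adjusted p = 0.0184). All E3KO libraries lay below all controls for both genes. Gja4 passed the filter through the control groups only, since its E3KO values did not exceed 1.13 FPKM. The call of Gja4 was kept in 5 of 17 alternatives, and leaving out any single library except ECtrl replicate 2 ended it (adjusted p from 0.0147 to 0.142 over the 17). It also ended against either control group alone. The call of Hey1 was kept in 12 (limma adjusted p from 0.0176 to 0.0989). It ended without EfCtrl replicates 1 or 3, without E3KO replicate 3, with the replicate number as a block and against EfCtrl alone. The median log2 difference of the arterial list was -0.17. That median was -0.01 without the library labelled E3KO replicate 1, where Gja4 was at -1.08 and Hey1 at -0.93, and 1 gene of the list was called.

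Among 11 genes of endothelium in general, 1 was called lower and 1 higher, beside 3.26% and 1.54% of all genes. Cldn5, a tight junction protein, was at 97.5, 129 and 114 FPKM in E3KO and at 167 to 276 FPKM in the controls (log2 difference -0.92, limma adjusted p = 0.0322). Emcn, a sialomucin of veins and capillaries, was at 1557, 1452 and 1477 FPKM in E3KO and at 822 to 1095 FPKM in the controls (log2 difference 0.63, limma adjusted p = 0.0260). Without the library labelled E3KO replicate 1 both missed the threshold (log2 differences -0.81 and 0.60, adjusted p = 0.0747 and 0.0558), and they were kept in 6 and 9 of 17 alternatives (ranges 0.0214 to 0.109 and 0.0175 to 0.0955). Besides E3KO replicates 2 and 3, the libraries whose omission ended the call were ECtrl replicate 3 and all of EfCtrl for Cldn5, and EfCtrl replicates 1 and 3 for Emcn. Against either control group alone both calls also ended. The median log2 difference of the list was 0.02, against -0.08 over all genes, and 0.10 without the library labelled E3KO replicate 1.

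Markers of other cell types varied between libraries beside these results. The 8 leukocyte genes summed to 41.8 to 224 FPKM in the controls and 154 to 279 FPKM in E3KO, with Lyz2 at 28.0 to 191 and 133 to 221 FPKM. Neither of the 2 leukocyte genes tested, Lyz2 and Cd68, was called with all libraries, and Cd68 was called higher without the library labelled E3KO replicate 1 (log2 difference 1.24, limma adjusted p = 0.0290). The 10 fibroblast and mural genes, led by Acta2 and Tagln, had their lowest sums in the library labelled E3KO replicate 1 (10.1 FPKM) and in ECtrl replicate 1 (11.9 FPKM). The fibroblast and mural, mesothelial and alveolar type I lists held no call. The median log2 difference between E3KO and the controls was 0.89 for the 2 leukocyte genes tested. For the 5 fibroblast and mural genes tested it was -1.33, and all 5 lay below the control mean. Without the library labelled E3KO replicate 1 these medians were 1.22 and -1.12. ECtrl replicate 1, which had the lowest fibroblast, mesothelial and leukocyte sums of the controls, had the highest Prox1, Nr2f2, Ccl21a, Mmrn1, Nts, Pdpn and Lyve1 levels. Reln was highest in EfCtrl replicate 3 (81.0 FPKM), Itga9 in ECtrl replicate 3 (20.6 FPKM) and Flt4 in EfCtrl replicate 1 (188 FPKM). The part of these other cell types in the members' levels was not tested.

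**Figure D5:**
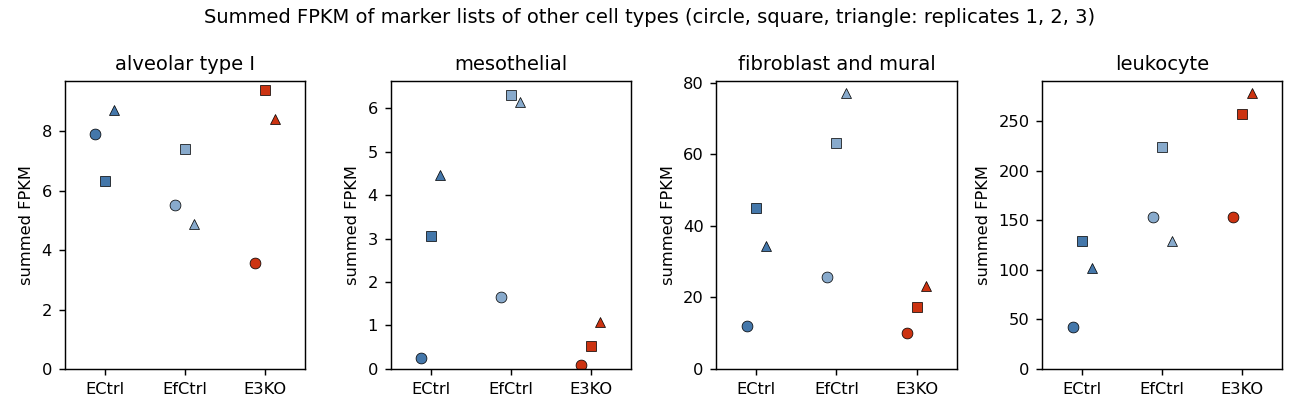
Summed FPKM of the marker lists of alveolar type I, mesothelial, fibroblast and mural, and leukocyte cells on the y axes, which start at 0, in ECtrl, EfCtrl and E3KO on the x axis. Circles, squares and triangles are replicates 1, 2 and 3. Fibroblast and mural sums reach 77.1 FPKM in the controls and 23.0 FPKM in E3KO, and the highest leukocyte sum, 279 FPKM, is that of an E3KO library.

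The genes with the profile most like that of Prox1 over the 9 libraries were found among the 8122 genes that averaged at least 5 FPKM, by the root mean square distance between centred log2(FPKM + 1) values. The nearest were Podxl (distance 0.09), Dusp3 (0.10), Gjc1 (0.11), Ctdspl (0.11) and Prkcz (0.11), which all had a log2 difference between E3KO and the controls from -0.85 to -1.03. Among the members, Reln ranked 37 by its distance from Prox1 and Mmrn1 ranked 267, while Nts, with its larger difference, ranked 7281. The genes nearest to Nts were Fgl2 (0.29), F2rl1 (0.37), Fxyd6 (0.41), Plce1 (0.43) and Fhl1 (0.46), and Prox1 ranked 57 from it. The values were not scaled, so a gene near Prox1 must have a similar difference between E3KO and the controls. A larger gap by itself moves a gene away, as for Nts. These distances are a description over 9 libraries of 3 groups and carry no test.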

How the data were processed

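RNA-seq of 9 MLEC libraries was analysed. TopHat2 was used by the authors to align the reads to mm10, and the deposited FPKM values come from Cufflinks and Cuffdiff. The submitters' processing notes give Cufflinks 1.0.3. The deposited tables hold an FPKM per locus and library and an FPKM per group. Their fold change, test statistic, p-value and q-value columns were not used. Annotation, strand use and batches are not given in the sources used here. Of 37104 rows, 3749 share a symbol with another row and 2 lack per-library values, and these were left out.

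The 10605 genes whose mean reached 2 FPKM in any group were fitted as log2(FPKM + 1) with limma 3.58.1 (R 4.3.3), 3 groups in 1 model, with Benjamini-Hochberg adjustment over all genes and a call at adjusted p under 0.05. Fold changes on this scale understate those of low genes. The fit was tested on simulated data. Replicates are separate isolations, and P-values rest on 3 libraries per group. FPKM keeps no fragment number, and rough depths relative to ECtrl replicate 2 were 1.17 to 1.71.

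Named genes are the members, the targeted genes, every call in the lists, the 2 highest genes of lists without a call, and the 5 nearest profiles to Prox1 and Nts, with other list genes chosen after their values were seen. Members and lists were chosen with earlier results of these data known. Loci were matched to GENCODE M21, promoters to RefSeq (8 of 9 members) and older symbols to RefSeq synonyms. Alternatives were another pseudocount, other filters, centring, a replicate block, a mean-variance trend, either control alone and the omission of each library. Python 3.11.15, pandas 2.3.3 and Biopython 1.88 were used.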

Additional observations from a re-analysis of the deposited data

How the results depend on the processing

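The 8 members kept a median log2 difference between E3KO and the controls from -0.70 to -0.83 in every alternative run. Of 136 alternative values for single members, 135 moved by less than the spread between libraries, and the exception was Ccl21a, at -2.42 with a pseudocount of 0.1. The other filters, the replicate block and the trend could not change a member's difference, so their values equal those of the main fit by design. The count is therefore a description and no check on the members. Nr2f2 was the only member to change sign, at 0.03 without the library labelled E3KO replicate 1. All 120 alternative values of EfCtrl minus ECtrl for single members stayed on the same side of the threshold.

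Counts of calls were less stable. Over all genes, 509 calls (68.0% lower) became 477 (56.2% lower) with each library centred on its median gene, 239 against ECtrl alone, 101 against EfCtrl alone, and 9 to 412 when a library was left out, with the lowest count without E3KO replicate 3. The 0 calls between the control groups became 0 to 4 when a library was left out. The 2 calls among the wider lymphatic genes became 4 with centring, 0 with no filter on low values, 0 against ECtrl alone, 0 against EfCtrl alone and 0 to 3 when a library was left out. The 2 venous calls became 1 against EfCtrl alone and 1 to 2 when a library was left out. The 2 arterial calls became 1 with no filter, 1 against ECtrl alone, 0 against EfCtrl alone and 0 to 3 when a library was left out. The causes were not tested, beyond the fewer libraries that each omission leaves.

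Libraries with the same replicate number are isolations from different mice. The correlation of their deviations from the group means ran from -0.04 to 0.12 over 9 pairs, 2 of which were over 0.1, and 5 of 9 libraries correlated best with their own number. With the replicate number as a block, calls over all genes were 202, those among the wider lymphatic genes 1 and those among arterial genes 0. The median of the members stayed at -0.77, which the block could not change because each group holds each replicate number. The number of fragments behind each gene is unknown, so no counting interval was given, also for Ccl21a, whose E3KO values are at or under 1.02 FPKM.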
